A study of Mus musculus with 12 samples.

Results

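The VEGF and angiopoietin signalling genes described here are the ligands Vegfa, Vegfc, Angpt1 and Angpt2, the receptors Kdr, Flt1, Flt4, Tek and Tie1, and Clec14a. They were chosen by gene symbol, with no measured value in the rule, but earlier results of these data were known at that time. Shares of the members set beside shares of all genes are therefore descriptions. Each symbol matched 1 of the 23127 genes in the table, so 10 genes of 23127 are described. All 10 passed the filter on low values, a mean of at least 1 CPM (reads of a gene scaled to a common library total) over the libraries, which 15562 genes passed.

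RNA from whole lung was sequenced in 12 C57BL6/J mice in 3 groups of 4: 0-week controls, and mice given L-NAME with a high-fat diet (HFD) for 2 or for 5 weeks. L-NAME blocks nitric oxide synthase and was given in the drinking water at 0.5 g/L, and 60% of the diet was lipid. The combination is used in mice as a model of heart failure with preserved ejection fraction. Both agents were given together and the controls were taken at 0 weeks, so L-NAME, diet and time on study cannot be told apart, and the labels of these libraries give neither the sex and age of the mice nor the controls' diet.

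VEGF-A, the product of Vegfa, is the main growth and survival factor of blood vessel endothelium, and in the adult lung the alveolar epithelium makes much of it. It signals through VEGFR2, the product of Kdr, whereas VEGFR1, the product of Flt1, binds VEGF-A tightly, signals weakly and acts largely as a decoy. VEGF-C and its receptor VEGFR3, the products of Vegfc and Flt4, drive the growth of lymphatic vessels. Angiopoietin-1 from perivascular cells activates TIE2, the product of Tek, and keeps vessels quiescent, while angiopoietin-2 from endothelium often opposes it. TIE1 is a receptor related to TIE2 that modulates its signalling, and CLEC14A is a C-type lectin-like membrane protein of endothelium.

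Depth was read from the smallest step between low CPM values and corresponded to between 26000000 and 34100000 reads per library. Lung markers were abundant in all groups: Sftpc, the surfactant protein C gene of alveolar type 2 cells, averaged 11408, 12816 and 14180 CPM at 0, 2 and 5 weeks. The pan-endothelial markers, a list of 18 genes of which Calcrl and Cdh5 were the most abundant, had a mean log2(CPM + 1) of 7.95 to 8.33 in controls, 8.12 to 8.24 at 2 weeks and 8.05 to 8.19 at 5 weeks. On the first 3 principal components of the genes tested, 3 libraries each lay farthest out on 1 component. They were replicate 2 of the controls, replicate 3 at 2 weeks and replicate 3 at 5 weeks. Control replicate 4, at -24.0 on the component where 5-week replicate 3 lay at 38.1, was not counted among them. In 5-week replicate 3 the red cell markers had a mean log2(CPM + 1) of 9.93, against at most 7.60 in any control library, and in control replicate 2 the adipocyte markers had one of 6.94, against 1.69 to 3.998 in the treated libraries. In bulk tissue, fewer cells of a type and less RNA per cell cannot be told apart.

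The clearest differences lay in the endothelial genes Clec14a and Kdr at 2 weeks. Clec14a averaged 599.8 ± 3.8 CPM at 2 weeks against 459 ± 40.9 CPM in controls, and Kdr 534 ± 9.17 CPM at 2 weeks against 444 ± 35.5 CPM in controls (SD, n = 4 each). For both genes every 2-week mouse lay above every control mouse, and no member had all 2-week mice below the controls. Of all 15562 genes tested, 5.32% had such separate groups at 2 against 0 weeks (3.37% higher and 1.95% lower). At 5 against 0 weeks no member had separate groups, where 5.01% of all genes did (3.65% higher and 1.36% lower). At 5 against 2 weeks Clec14a was the 1 member with separate groups, where 4.94% of all genes had them (2.38% higher and 2.56% lower). After adjustment over all genes no member passed the threshold of 0.05 in limma in any comparison, and neither did any other gene (0% of 15562 in each of the 3 comparisons and in the test over all 3 groups). Before adjustment, limma gave p under 0.05 for 3 of the 10 members at 2 against 0 weeks (Clec14a, Kdr and Vegfc), where 9.24% of all genes had such a p. It did so for 2 of 10 at 5 against 0 weeks (Clec14a and Vegfc), where 8.63% of all genes did, and for 1 of 10 at 5 against 2 weeks (Clec14a), where 10.9% did. In the test over all 3 groups it did so for Clec14a and Kdr, where 10.8% of all genes did, with adjusted limma p of 0.228 and 0.436.

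The regions before the start of Clec14a, Kdr and Tie1, the 3 endothelial genes with the highest 2-week means relative to control, are shown here, because factors of the ETS family, such as ERG and FLI1, are known regulators of endothelial genes. Each line gives the 250 bases before the annotated start in RefSeq (GRCm38.p6), 5′ to 3′ on the gene's own strand, which is the minus strand for all 3. The windows are chr12:58269259-58269508 for Clec14a, chr5:75978456-75978705 for Kdr and chr4:118489850-118490099 for Tie1. Capitals mark the letters CCGGAA or CAGGAA on either strand, which resemble ETS sites.
Clec14a: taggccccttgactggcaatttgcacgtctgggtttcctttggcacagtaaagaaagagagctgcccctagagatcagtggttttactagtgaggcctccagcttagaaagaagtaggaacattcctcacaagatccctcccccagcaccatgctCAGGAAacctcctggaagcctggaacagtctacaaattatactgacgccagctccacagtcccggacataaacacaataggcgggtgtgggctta
Kdr: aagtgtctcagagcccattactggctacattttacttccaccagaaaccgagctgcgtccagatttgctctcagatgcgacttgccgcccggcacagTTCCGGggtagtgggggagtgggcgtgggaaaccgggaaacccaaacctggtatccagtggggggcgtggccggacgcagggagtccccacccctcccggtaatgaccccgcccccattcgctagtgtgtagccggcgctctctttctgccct
Tie1: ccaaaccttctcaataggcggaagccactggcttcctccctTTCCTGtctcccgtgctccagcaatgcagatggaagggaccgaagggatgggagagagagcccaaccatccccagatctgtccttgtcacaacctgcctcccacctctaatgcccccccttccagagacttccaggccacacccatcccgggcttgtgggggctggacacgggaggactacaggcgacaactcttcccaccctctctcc
Each of these windows held the letters 1 time. The window of Tek, with a limma log2 difference of 0.07 at 2 against 0 weeks, held them 2 times, and 1 Vegfa window held them 1 time. The table had 9 windows for 8 of the members, Vegfa having more than 1, and 5 of the 9 held the letters, against 35.1% of all 32851 windows of the same length. A match of letters is a description and does not show a bound site.

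Levels can be compared between genes only per length, here as CPM per kb of merged exons. By that measure the ligand gene Vegfa was the most abundant member, at 204 ± 19.7 CPM per kb over the 12 libraries (SD), followed by Clec14a at 115 ± 14.7 CPM per kb. The Tie and VEGF receptor genes Tek, Tie1 and Kdr followed at 80.0 ± 8.57, 65.0 ± 7.95 and 54.0 ± 5.99 CPM per kb. Flt1 stood at 23.8 ± 3.13, Angpt1 at 18.6 ± 2.05, Vegfc at 8.46 ± 1.48, Flt4 at 7.16 ± 0.98 and Angpt2 at 7.0 ± 0.98 CPM per kb. The ranges of neighbours in this order did not overlap between Vegfa and Clec14a, Kdr and Flt1, or Angpt1 and Vegfc, and overlapped for the other neighbours. Within a library the order of the first 6 genes was the same in all 12 libraries, whereas Flt1 exceeded Angpt1 in 11, Vegfc exceeded Flt4 in 10 and Flt4 exceeded Angpt2 in 9 of 12. Merged exons join all annotated exons of a gene, 9.03 kb for Kdr and 13.5 kb for Flt1 against 4.71 kb for Tek and 4.92 kb for Tie1. With other transcript lengths the order could differ.

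**Figure D1:**
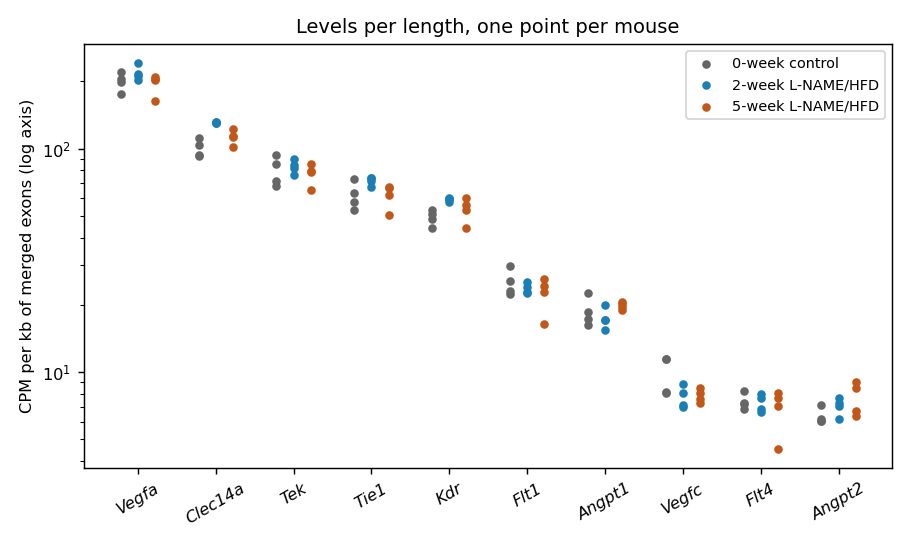
Level of each member per kb of merged exons, on a log axis, with one point per mouse, coloured by group and ordered by the mean over 12 libraries. Vegfa (204 CPM per kb) and Clec14a (115 CPM per kb) lead, and Vegfc, Flt4 and Angpt2 lie close together at the low end.

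Among the ligands, Vegfa (ENSMUSG00000023951, chromosome 17, 46327919 to 46343295 as the deposited table gives it; these positions do not match GRCm38, the mm10 build that the submitters' notes list) had 853, 753, 943 and 875 CPM in the 4 controls. At 2 weeks it had 1033, 903, 872 and 920.5 CPM, and at 5 weeks 893, 869, 701 and 875 CPM. The groups overlapped throughout, and the lowest value of all 12 was that of 5-week replicate 3. The limma difference in log2(CPM + 1) was 0.12 ± 0.10 (SE) at 2 against 0 weeks (adjusted p = 0.682), and at 5 against 0 weeks -0.04 ± 0.10 (adjusted p = 0.916). It was -0.16 ± 0.10 at 5 against 2 weeks (adjusted p = 0.580).

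Vegfc (ENSMUSG00000031520, chromosome 8, 54530641 to 54640131) had 19.8, 20.04, 28.0 and 27.9 CPM in the controls, 2 lower and 2 higher mice. At 2 weeks it had 17.1, 17.4, 19.8 and 21.7 CPM and at 5 weeks 19.8, 20.8, 18.6 and 17.8 CPM. All 8 treated mice lay below the 2 higher controls, and both treated groups overlapped the lower 2. Means were 19.0 ± 2.15 CPM at 2 weeks against 23.9 ± 4.64 CPM in controls, a log2 difference of -0.30 ± 0.13 (SE; limma adjusted p = 0.494). At 5 weeks the mean was 19.3 ± 1.32 CPM and the log2 difference from control -0.28 ± 0.13 (limma adjusted p = 0.575). Between 5 and 2 weeks it was 0.02 ± 0.13 (limma adjusted p = 0.973).

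**Figure D2:**
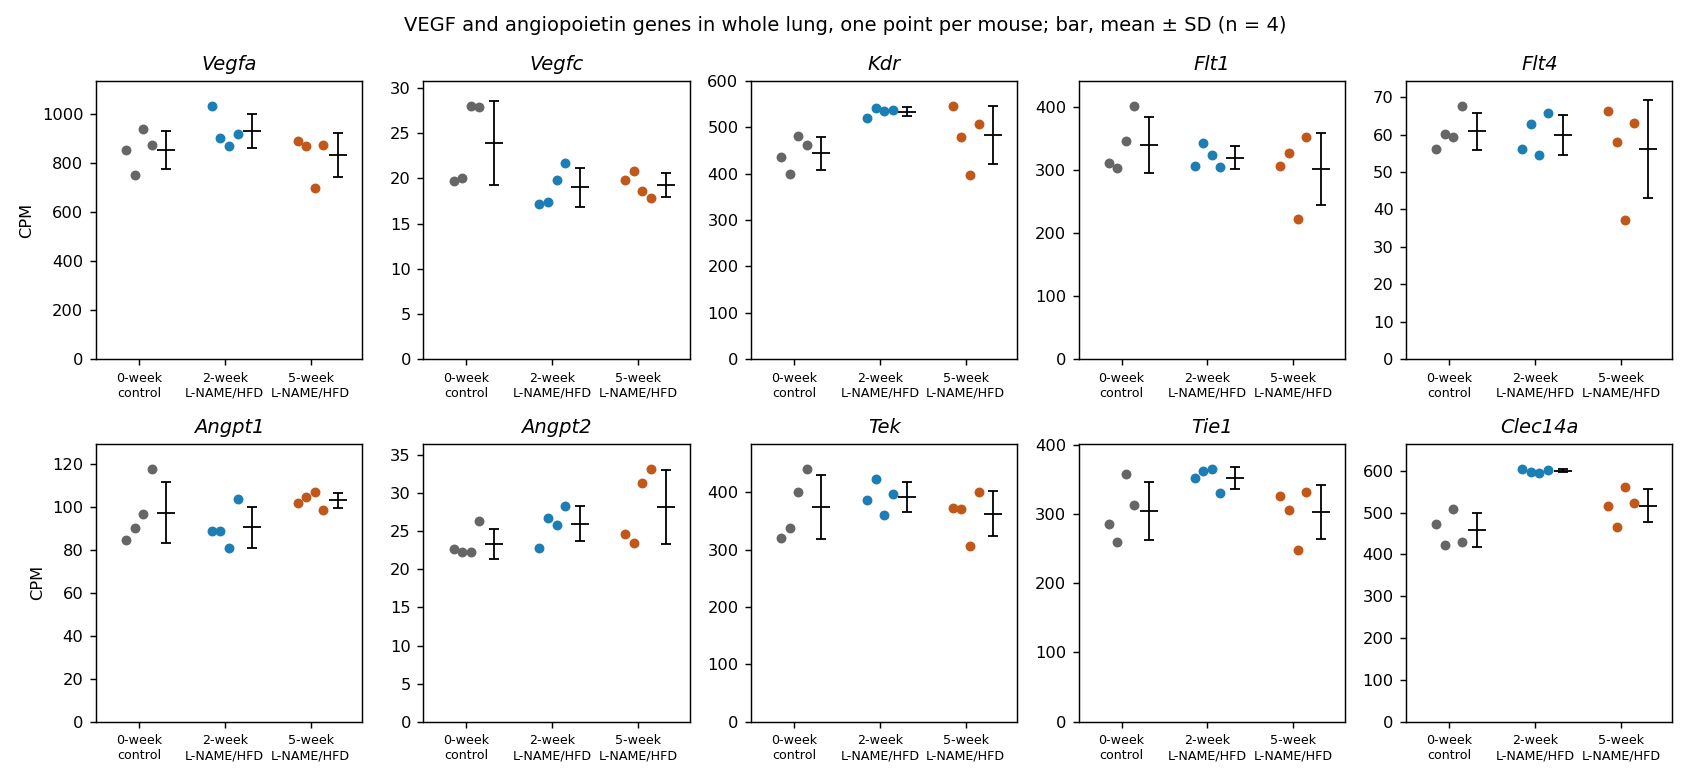
CPM of the 10 members in whole lung, one point per mouse, with mean ± SD of each group (n = 4) beside the points; axes start at 0 and differ between panels. The 2-week mice sit above all controls for Clec14a and Kdr, and 5-week replicate 3 is the lowest of 12 for 6 genes. The share of all genes lowest in that mouse was not determined.

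Of the VEGF receptor genes, Kdr (ENSMUSG00000062960, chromosome 5, 76093487 to 76139118) encodes the receptor that carries most VEGF-A signalling in endothelium. It had 435, 399, 481 and 461 CPM in the controls, 521, 542, 536 and 538 CPM at 2 weeks, and 546, 480.2, 398 and 508 CPM at 5 weeks. The 2-week mice lay close together and above all controls, whereas the 5-week mice spread over the values of both other groups. The log2 difference was 0.27 ± 0.09 (SE) at 2 against 0 weeks, a mean 20.3% above control (limma adjusted p = 0.410). At 5 against 0 weeks it was 0.11 ± 0.09 (limma adjusted p = 0.725), and at 5 against 2 weeks -0.16 ± 0.09 (limma adjusted p = 0.580).

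Flt1 (ENSMUSG00000029648, chromosome 5, 147498414 to 147662821), the gene of the decoy receptor, had 311, 303, 347 and 402 CPM in the controls. It had 307, 343, 325 and 306 CPM at 2 weeks, and 307, 328, 222 and 353 CPM at 5 weeks. All groups overlapped, and the log2 difference from control was -0.08 ± 0.13 (SE) at 2 weeks and -0.18 ± 0.13 at 5 weeks (limma adjusted p = 0.840 and 0.695). It was -0.10 ± 0.13 at 5 against 2 weeks (limma adjusted p = 0.837).

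Flt4 (ENSMUSG00000020357, chromosome 11, 49500090 to 49543566), the gene of the VEGF-C receptor, ranged from 56.2 to 67.6 CPM in controls, 54.6 to 65.7 CPM at 2 weeks and 37.2 to 66.3 CPM at 5 weeks. The 37.2 CPM was that of 5-week replicate 3, and the other 3 mice of that group had 58.0 to 66.3 CPM. The log2 differences from control were -0.02 ± 0.15 (SE) at 2 weeks and -0.14 ± 0.15 at 5 weeks (limma adjusted p = 0.964 and 0.780), and at 5 against 2 weeks it was -0.12 ± 0.15 (limma adjusted p = 0.832). Beside these values, the 7 genes listed as lymphatic endothelial markers, of which 6 were tested and Lyve1 and Pdpn were the most abundant, had a mean log2(CPM + 1) of 5.29 to 5.51 in controls, 5.15 to 5.40 at 2 weeks and 5.20 to 5.36 at 5 weeks. That mean joins 3 genes higher and 3 lower at 5 against 0 weeks, with Lyve1 at -0.63 ± 0.18 and Pdpn at 0.13 ± 0.11 (log2 difference, SE). Which cells of the whole lung these transcripts came from was not determined, so the mean is no measure of lymphatic endothelium alone.

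Of the angiopoietin genes, Angpt1 (ENSMUSG00000022309, chromosome 15, 42288119 to 42540373), the gene of the TIE2 agonist, had 84.8, 90.3, 96.7 and 118 CPM in the controls. At 2 weeks it had 89.0, 88.6, 80.6 and 103 CPM, and at 5 weeks 102, 105, 107 and 98.5 CPM. The 2-week mice other than replicate 4 lay below all 5-week mice, and the log2 difference at 5 against 2 weeks was 0.19 ± 0.10 (SE; limma adjusted p = 0.516). Against control it was -0.10 ± 0.10 at 2 weeks and 0.09 ± 0.10 at 5 weeks (limma adjusted p = 0.741 and 0.793).

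Angpt2 (ENSMUSG00000031465, chromosome 8, 18740279 to 18791578), the gene of the context-dependent TIE2 antagonist, had 22.7, 22.2, 22.2 and 26.3 CPM in the controls. At 2 weeks it had 22.9, 26.7, 25.9 and 28.4 CPM, and at 5 weeks 24.6, 23.4, 31.4 and 33.2 CPM. The treated mice all lay above the lower 3 controls, and control replicate 4 overlapped both treated groups. The mean was 28.1 ± 4.83 CPM at 5 weeks against 23.4 ± 1.97 CPM in controls, a log2 difference of 0.25 ± 0.11 (SE; limma adjusted p = 0.578). At 2 weeks the mean was 26.0 ± 2.30 CPM and the log2 difference from control 0.15 ± 0.11 (limma adjusted p = 0.685). It was 0.10 ± 0.11 at 5 against 2 weeks (limma adjusted p = 0.806).

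Of the angiopoietin receptor genes, Tek (ENSMUSG00000006386, chromosome 4, 94627526 to 94763213) had 320.3, 338, 401 and 441 CPM in the controls, 387, 424, 360.0 and 397 CPM at 2 weeks, and 373, 372, 307 and 401 CPM at 5 weeks. The groups overlapped, with log2 differences from control of 0.07 ± 0.11 (SE) at 2 weeks and -0.04 ± 0.11 at 5 weeks (limma adjusted p = 0.831 and 0.917). At 5 against 2 weeks the difference was -0.11 ± 0.11 (limma adjusted p = 0.762).

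Tie1 (ENSMUSG00000033191, chromosome 4, 118328388 to 118347258) had 285, 260.1, 358 and 313 CPM in the controls, 351, 362, 365 and 330.4 CPM at 2 weeks, and 327, 305, 248 and 332 CPM at 5 weeks. The 2-week mice were all above 3 of the 4 controls. The log2 difference was 0.22 ± 0.11 (SE) at 2 against 0 weeks (limma adjusted p = 0.553), and -0.23 ± 0.11 at 5 against 2 weeks (limma adjusted p = 0.473). At 5 against 0 weeks it was -0.004 ± 0.11 (limma adjusted p = 0.992).

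Clec14a (ENSMUSG00000045930, chromosome 12, 58311506 to 58316076) had 473, 422, 509.7 and 429.7 CPM in the controls, 604, 598, 596 and 601 CPM at 2 weeks, and 515, 467, 562 and 522 CPM at 5 weeks. The 2-week mice lay close together, above all controls and above all 5-week mice. The mean at 2 weeks was 30.8% above control, a log2 difference of 0.39 ± 0.08 (SE; limma adjusted p = 0.138), and the gene ranked 22 by p among the 15562 tested. At 5 weeks the mean was 12.6% above control with overlapping mice, a log2 difference of 0.17 ± 0.08 (limma adjusted p = 0.575). At 5 against 2 weeks every mouse of the 5-week group lay below the 2-week group, and the log2 difference was -0.22 ± 0.08 (limma adjusted p = 0.334). The 2-week difference passed the threshold without 5-week replicate 3 (limma adjusted p = 0.0492), where 24 of 15562 genes passed in all. That library is in neither group of this comparison, so leaving it out changed only the shared estimate of the spread. With library weights, which gave that library the lowest weight, the 2-week difference passed as well (limma adjusted p = 0.0430), where 18 genes passed in all. So did the difference at 5 against 2 weeks (limma adjusted p = 0.0283), where 881 genes passed in all.

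**Figure D3:**
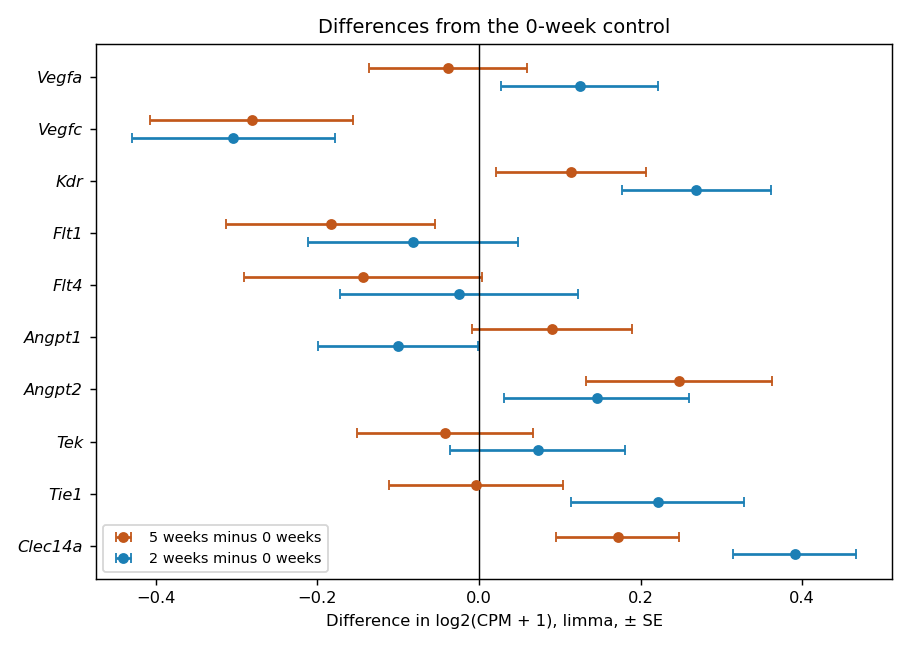
Difference from the 0-week control in log2(CPM + 1) for each member, as limma estimates with SE, for 5 weeks (orange) above 2 weeks (blue). Clec14a at 2 weeks lies farthest from 0 (0.39 ± 0.08), and Vegfc lies below 0 at both times.

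Over the 10 members, the estimates were higher for 4 and lower for 6 at 5 against 0 weeks, with a median log2 difference of -0.02. They were higher for 6 and lower for 4 at 2 against 0 weeks, with a median of 0.10, and higher for 3 and lower for 7 at 5 against 2 weeks, with a median of -0.12. The medians over all genes tested were 0.02, 0.02 and 0.0007 for the same comparisons, in which 55.0%, 55.1% and 50.2% of all genes were higher. The comparisons share libraries, so they are not independent of each other.

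The balance of the decoy to the signalling receptor was examined as the log2 ratio of Flt1 to Kdr within each mouse, which does not depend on the scaling of a library. It was -0.48, -0.40, -0.47 and -0.20 in the controls, -0.76, -0.66, -0.72 and -0.81 at 2 weeks, and -0.83, -0.55, -0.84 and -0.52 at 5 weeks. Every treated mouse lay below every control mouse at both times. Both comparisons use the same 4 controls, and the share of other gene pairs with such separate ratios was not determined. Singly, Kdr differed from control by 0.27 and Flt1 by -0.08 at 2 weeks, and by 0.11 and -0.18 at 5 weeks (limma log2 differences). The difference in the log2 ratio was -0.35 at 2 against 0 weeks and -0.30 at 5 against 0 weeks. Each had an exact two-sided permutation p of 0.0286, the smallest that 4 against 4 mice allow. Adjusted over the 9 ratio comparisons made, the exact permutation p was 0.129 for both. Between 5 and 2 weeks the ratio differed by 0.05 (exact permutation p = 0.6, adjusted 0.675).

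The log2 ratio of Angpt2 to Angpt1, the antagonist to the agonist, averaged -2.01 ± 0.12 in controls, -1.76 ± 0.14 at 2 weeks and -1.85 ± 0.26 at 5 weeks (SD, n = 4 each). The difference was 0.25 at 2 against 0 weeks (exact permutation p = 0.0571, adjusted 0.171), with overlapping mice. It was 0.16 at 5 against 0 weeks (exact permutation p = 0.343, adjusted 0.514). The log2 ratio of Tie1 to Tek averaged -0.30 ± 0.16 in controls, -0.15 ± 0.13 at 2 weeks and -0.26 ± 0.05 at 5 weeks. Its differences were 0.15 at 2 against 0 weeks and 0.04 at 5 against 0 weeks (exact permutation p = 0.229 and 0.743, adjusted 0.411 and 0.743). At 5 against 2 weeks the differences of these ratios were -0.09 and -0.11 (exact permutation p = 0.571 and 0.143, adjusted 0.675 and 0.322).

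**Figure D4:**
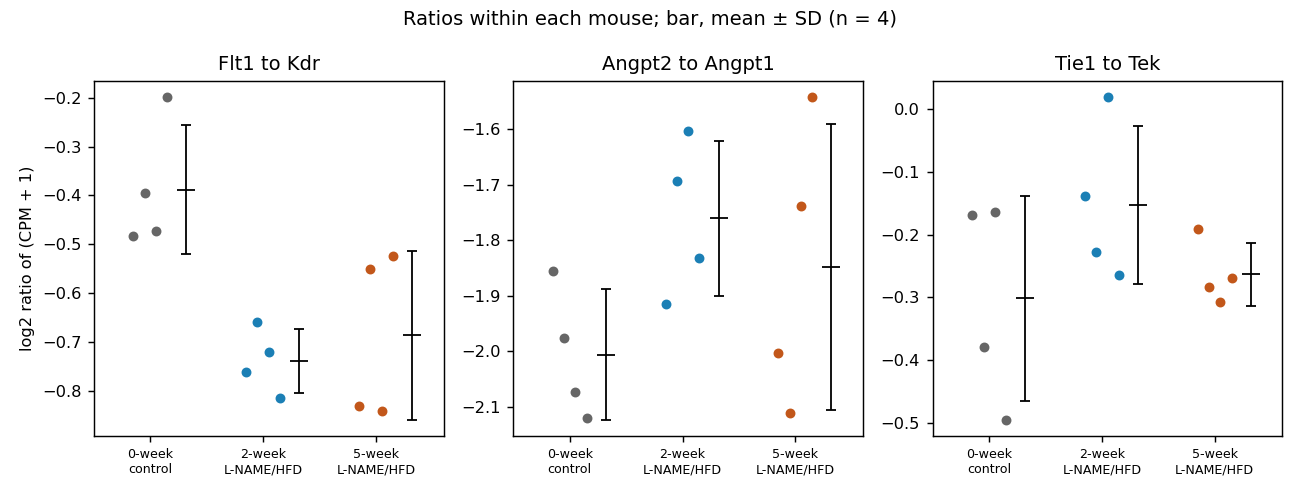
Log2 ratio of (CPM + 1) of Flt1 to Kdr, Angpt2 to Angpt1 and Tie1 to Tek, one point per mouse, with mean ± SD of each group (n = 4). For Flt1 to Kdr all treated mice lie below all controls, and the groups overlap for the other ratios. The share of other gene pairs with separate groups was not determined.

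Set against the mean of the 18 pan-endothelial markers of the same library, Clec14a stood 0.99 to 1.11 log2 units above that mean at 2 weeks and 0.54 to 0.88 in controls. Kdr stood 0.85 to 0.95 above it at 2 weeks and 0.59 to 0.76 in controls, and Tie1 0.23 to 0.40 at 2 weeks and 0.08 to 0.16 in controls. Vegfc stood at -4.0361 to -3.6345 relative to it at 2 weeks and -3.6315 to -3.3596 in controls, so that its groups were separate by a very small margin. For these 4 genes of 10 the 2-week mice and the controls did not overlap on this scale, on which 2.46% of all 15562 genes tested did not (0.99% higher and 1.47% lower). Before the subtraction that share was 5.32%. The subtracted mean had an SD of 0.18 in controls and 0.05 at 2 weeks. Subtraction can act unlike on endothelial and other genes, so the share over all genes is no like background for these members. A share among endothelial genes was not determined. At 5 against 0 weeks all 10 members overlapped, where 1.91% of all genes did not (1.16% higher and 0.745% lower). At 5 against 2 weeks Tie1 alone was separate, with -0.098 to 0.2324 at 5 weeks and 0.2346 to 0.400 at 2 weeks, where 4.55% of all genes were (3.56% higher and 0.99% lower). The pan-endothelial markers themselves were higher at 2 against 0 weeks for 13 of 18 and lower for 5, where 55.1% of all genes were higher. Of these markers, 1 had an unadjusted limma p under 0.05. With every library shifted to a common level of these markers, the adjusted limma p at 2 against 0 weeks was 0.482 for Clec14a, 0.903 for Kdr, 0.751 for Vegfc and 0.933 for Tie1.

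**Figure D5:**
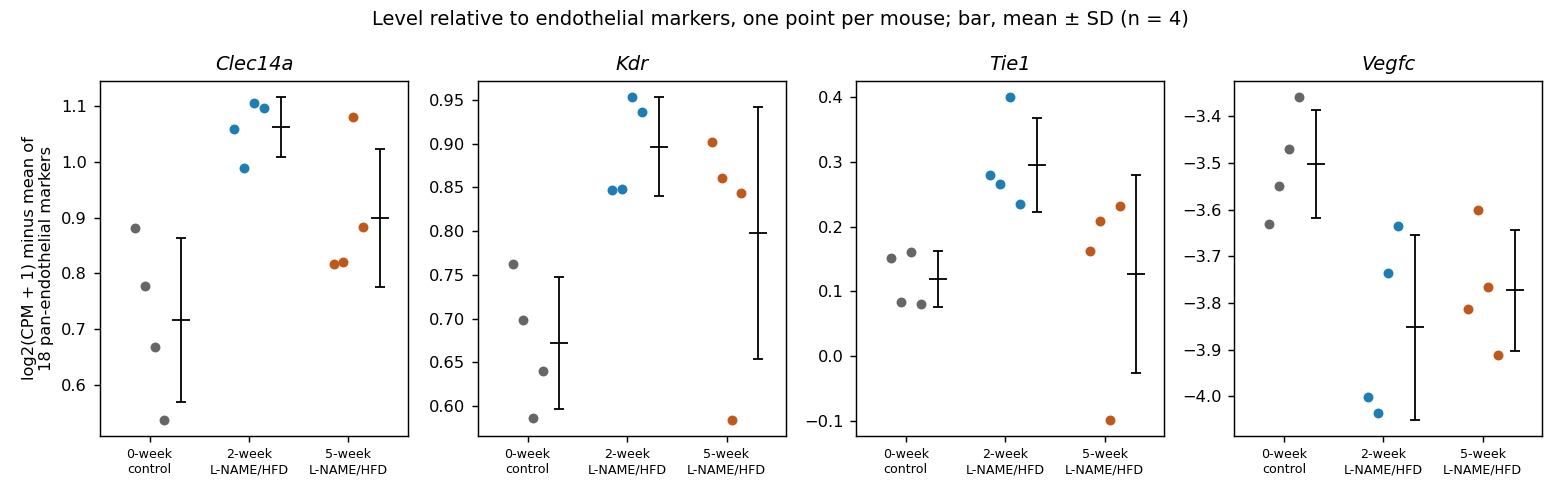
Log2(CPM + 1) of Clec14a, Kdr, Tie1 and Vegfc minus the mean of 18 pan-endothelial markers in the same library, one point per mouse, with mean ± SD (n = 4). The 2-week mice are above the controls for Clec14a, Kdr and Tie1 and below them for Vegfc, 4 of 10 members where 2.46% of all genes are separate. That share is 5.32% before the subtraction and is no like background for endothelial genes. In the 5-week group, replicate 3 is the lowest mouse for Kdr and Tie1.

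Among markers of endothelial subtypes, given as the mean log2(CPM + 1), those of large vessels, led by Mgp and Vwf, lay between 6.56 and 6.68 in controls, 6.70 and 6.77 at 2 weeks, and 6.53 and 6.69 at 5 weeks. Those of general capillaries, led by Tspan7 and Plvap, lay between 7.99 and 8.29 in controls, 8.15 and 8.25 at 2 weeks, and 7.97 and 8.15 at 5 weeks. Those of aerocytes, the VEGF-responsive capillary cells of the alveolus, led by Igfbp7 and Tbx2, lay between 7.39 and 7.66 in controls, 7.53 and 7.56 at 2 weeks, and 7.46 and 7.61 at 5 weeks. Higher and lower at 2 against 0 weeks were 7 and 2 large-vessel, 5 and 0 general capillary, and 6 and 3 aerocyte markers. At 5 against 0 weeks they were 6 and 3, 1 and 4, and 5 and 4. An unadjusted limma p under 0.05 was found for 2, 1 and 1 of them at 2 weeks (9.24% of all genes). At 5 weeks it was found for 0, 0 and 1 (8.63% of all genes). The means therefore join genes of unlike direction.

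Markers of other cell types had unlike means between groups as well, none past the threshold after adjustment. Of all genes tested, 9.24% at 2 and 8.63% at 5 against 0 weeks had an unadjusted limma p under 0.05. At 2 against 0 weeks, 8 of 9 smooth muscle markers, of which Acta2 and Des were the most abundant, had higher means, 6 of them at an unadjusted limma p under 0.05, with a summed level of 1218 to 1807 CPM at 2 weeks and 1077 to 1229 CPM in controls. The remaining marker, Myocd, named after its values were seen, had a lower mean, also at an unadjusted p under 0.05 (log2 difference -0.45 ± 0.15, SE). Against control, 1 smooth muscle marker at 5 weeks had a higher and 8 a lower mean, 2 of the lower at an unadjusted p under 0.05, with a summed level of 952 to 1186 CPM at 5 weeks. At 5 against 0 weeks the red cell markers, led by Hbb-bs and Hba-a1, were higher at an unadjusted p under 0.05 for 6 of 6 tested genes. Neutrophil markers, led by S100a9 and Csf3r, were so for 6 of 7 tested and B cell markers, led by Cd79a and Cd79b, for 7 of 8. Their summed levels were 1509 to 16211 CPM at 5 weeks and 1235 to 2604 CPM in controls for red cells. For neutrophils they were 115 to 342 CPM at 5 weeks and 57.9 to 186 CPM in controls, and for B cells 191 to 394 CPM at 5 weeks and 101 to 176 CPM in controls. In the other lists at 5 against 0 weeks, 10 alveolar type 2 markers were higher and 0 lower, and 7 and 3 alveolar type 1 markers. Higher and lower were 2 and 8 fibroblast, 4 and 8 pericyte, 1 and 7 cardiac muscle, and 1 and 6 adipocyte markers. In the same order, 9 and 1, 8 and 2, 1 and 9, 4 and 8, 8 and 0, and 0 and 7 were so at 2 weeks. At 5 weeks 2, 2, 5 (2 higher and 3 lower), 1, 0 and 0 of them had an unadjusted limma p under 0.05. The part of these shifts in the members' values was not tested.

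Several members had their extreme values in the same library. In 5-week replicate 3, 6 members (Vegfa, Kdr, Flt1, Flt4, Tek and Tie1) had their lowest value of all 12 libraries, while its mean of the pan-endothelial markers, 8.06, lay within the range of the controls. That library also had the lowest mean log2(CPM + 1) of all 12 for large-vessel markers (6.53), general capillary markers (7.97) and the modulators of VEGF and TIE signalling (6.50). It did not for aerocyte or lymphatic markers. In control replicate 4, Flt1, Flt4, Tek and Angpt1 had their highest value of all 12. The shares of all genes with their lowest or highest value in these libraries were not determined. Over the 45 pairs of members, Pearson's r of the deviations from group means in 12 libraries was above 0 for 35 pairs (77.8%, against 50.2% of all pairs of genes tested), and ranged from -0.47 for Flt4 with Clec14a to 0.90 for Kdr with Tie1. Of the 10 pairs below 0, 9 included Clec14a or Angpt2. These pairs share libraries, and the values are given as a description.

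By the same measure, the genes outside the set most like Kdr among 11947 candidates were Acvr1 (r = 0.96), a receptor of the bone morphogenetic protein family, Ace (0.95), the angiotensin-converting enzyme gene abundant in lung endothelium, Lmf2 (0.95), Arhgef15 (0.95) and Fhod1 (0.94). Those most like Vegfa were Lamb3 (0.93), a laminin chain of epithelial basement membranes, Nkd1 (0.92), Lmo7 (0.90), Sema3f (0.90), a semaphorin that binds neuropilins, and Lmf2 (0.90). Both Kdr and Vegfa had their lowest value of the 12 libraries in 5-week replicate 3, and the ranking without that library was not made.

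The wider pathway was described with 5 further lists, in none of which a gene passed the threshold. Of 6 other VEGF and angiopoietin ligands and receptors tested of 7 listed, 3 were higher and 3 lower at 5 against 0 weeks. The smallest p-values belonged to Vegfb, with 26.7 ± 1.12 CPM at 5 weeks against 25.5 ± 6.69 CPM in controls, and Nrp2, with 101 ± 18.4 CPM at 5 weeks against 96.0 ± 8.29 CPM in controls (limma adjusted p = 0.864 and 0.895). Of 19 modulators of VEGF and TIE signalling, 4 were higher and 15 lower at 5 as at 2 against 0 weeks, with medians of -0.20 and -0.10. Of all genes tested, 55.0% and 55.1% were higher in these comparisons. Timp3, an inhibitor of metalloproteinases that also blocks VEGF binding to its receptor, had a log2 difference of -0.34 ± 0.12 (SE) at 5 against 0 weeks, and the anti-angiogenic thrombospondin gene Thbs1 one of -0.46 ± 0.20 (limma adjusted p = 0.543 and 0.557).

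Of 24 genes of downstream signalling, 8 were higher and 16 lower at 5 against 0 weeks, with a median of -0.02. Nos3, the endothelial nitric oxide synthase gene, whose enzyme L-NAME inhibits, had 26.9 ± 5.69 CPM at 5 weeks against 34.2 ± 2.85 CPM in controls, and Grb2, an adaptor gene, 137 ± 5.69 CPM at 5 weeks against 126 ± 4.60 CPM in controls (limma adjusted p = 0.554 and 0.602). Of 16 VEGF-induced endothelial genes, 9 were higher and 7 lower at both times against control. At an unadjusted limma p under 0.05, 2 were higher and 3 lower at 2 weeks, and 0 higher and 4 lower at 5 weeks. Of all genes tested, 9.24% at 2 weeks and 8.63% at 5 weeks had such a p in either direction. Dll4, named after its values were seen, was 1 of the 2 higher at 2 weeks. It had 127 ± 3.86 CPM at 2 weeks and 109 ± 10.2 CPM at 5 weeks against 108 ± 8.76 CPM in controls (limma adjusted p = 0.398 and 0.981). The orphan nuclear receptor gene Nr4a3 had the widest difference among the genes named here, with 8.23 ± 4.26 CPM at 5 weeks and 6.62 ± 2.38 CPM at 2 weeks against 28.0 ± 6.87 CPM in controls. Its log2 differences were -1.77 ± 0.35 and -1.95 ± 0.35 (SE; limma adjusted p = 0.234 and 0.0983). The chemokine scavenger gene Ackr3 had 49.2 ± 7.06 CPM at 5 weeks against 68.4 ± 9.42 CPM in controls (limma adjusted p = 0.452).

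Of 17 hypoxia and HIF genes tested of 18 listed, 6 were higher and 11 lower at 5 against 0 weeks. Hif3a, a gene of the hypoxia-inducible factor family, had 2.95 ± 1.02 CPM at 5 weeks and 2.62 ± 0.98 CPM at 2 weeks against 6.49 ± 0.92 CPM in controls. Its log2 differences were -0.95 ± 0.22 and -1.08 ± 0.22 (SE; limma adjusted p = 0.328 and 0.138). Epas1, which encodes HIF-2α of endothelium, had 2646 ± 411 CPM at 5 weeks against 3295 ± 345 CPM in controls, a log2 difference of -0.33 ± 0.13 (limma adjusted p = 0.551).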

How the data were processed

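Whole lung of 12 mice was profiled by RNA sequencing. The authors deposited 1 table of CPM values per gene with 0.0001 added to each cell. Partek, TopHat2 and mm10 are listed, without their roles, per the submitters' processing notes. Their versions, and any annotation, strand setting or filter, are not given in the sources. The table's coordinates are not those of GRCm38 (486 of 23058 genes matched by identifier to GENCODE M21 had the same start), so positions are printed as the table gives them, with the end as its stop minus 1. Sequences are from RefSeq on GRCm38.p6, and exon lengths from GENCODE M21.

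Low CPM values lay on multiples of a step, but only 87.3% to 88.0% were within 0.1 of a whole step, so whole reads were not recovered, no count model was fitted and no counting interval is given. No 2 libraries were identical (66 pairs, Pearson's r of log2(CPM + 1) from 0.979 to 0.997). The labels name a mouse number for each library and no batch.

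Values were analysed as log2(CPM + 1), which understates the change of low genes. Limma 3.58.1 in R 4.3.3 fitted group means over 12 libraries for genes that averaged 1 CPM or more, with trended variance moderation, two-sided tests and Benjamini-Hochberg adjustment over all genes. The fit was tested on simulated data. Ratios were compared by exact two-sided permutation (scipy 1.17.1). Likeness is Pearson's r of deviations from group means, over genes of at least 5 CPM. Members and lists were chosen with earlier results of these data known. Named in the text are all members, the 2 genes with the smallest p at 5 against 0 weeks of each pathway list in which none passed, the 2 most abundant markers of a list, and the 5 genes most like Vegfa and Kdr. In addition, Myocd and Dll4 were named after their values were seen. As alternatives, the pseudocount was set to 0.1 or 5, the filter to none or 10 CPM, and other scalings were used, with library weights, robust moderation, fits of 2 groups, and leaving out libraries. Globin genes have near-identical copies and are uncertain singly, as are overlapping and antisense genes, since the counting is not stated to use strand.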

Additional observations from a re-analysis of the deposited data

Results flagged for a closer look

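Of 39 groups of 4 mice examined for a mouse far from the others, 2 held one, where chance alone gives about 1 in 20, here 1.95. In the 5-week group, Vegfa in replicate 3 was 701.096 CPM, the other 3 mice lying between 869 and 893 CPM. In the 0-week controls, Angpt2 in replicate 4 was 26.2823 CPM, the other 3 lying between 22.2 and 22.7 CPM.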

How the results depend on the processing

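No paired analysis was possible because the labels number no replicates across groups. With library weights, 1 member (Clec14a) passed at 2 against 0 weeks, at 5 against 2 weeks and in the test over 3 groups, where 18, 881 and 286 genes passed in all. With 1 library left out, members passing ranged from 0 to 1 at 2 against 0 weeks (Clec14a, without 5-week replicate 3) and were 0 in the other comparisons. All genes passing then ranged from 0 to 1 at 5 against 0 weeks (highest without control replicate 1) and 0 to 24 at 2 against 0 weeks (without 5-week replicate 3). They ranged from 0 to 386 at 5 against 2 weeks and 0 to 134 in the test over 3 groups, both highest without 2-week replicate 4. The cause was not tested. The Flt1 to Kdr difference was -0.25 at 5 against 0 weeks and -0.36 at 2 against 0 weeks without the 3 libraries that stand apart, with an exact permutation p of 0.1, the smallest that 3 against 3 allow. With 1 library left out it ranged from -0.35 to -0.23 and from -0.38 to -0.29, where the smallest exact p is 0.0571, and from -0.0013 to 0.104 at 5 against 2 weeks. The Tie1 to Tek difference at 5 against 0 weeks then ranged from -0.026 to 0.0841.

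Of the members' log2 differences, 342 of 360 with 1 library left out and 317 of 330 under the other alternatives kept their direction and their side of the threshold. The reversals lay at differences not past the threshold. At 5 against 0 weeks, Tie1 was 0.0075 with pan-endothelial scaling. With library weights, Tek was 0.0815, Flt4 0.0549, Vegfa 0.0525 and Tie1 0.12 at 5 against 0 weeks, and Flt4 0.0601 at 5 against 2 weeks. Without the 3 libraries, Flt4 was 0.0343 and Tie1 0.0182 at 5 against 0 weeks, Flt4 0.013 at 2 against 0 weeks, and Flt4 0.0213 and Flt1 0.046 at 5 against 2 weeks. With 1 library left out at 5 against 0 weeks, Tek ranged from -0.114 to 0.039, Flt4 from -0.233 to 0.0387, Vegfa from -0.0981 to 0.0433 and Tie1 from -0.0752 to 0.0894. At 2 against 0 weeks Flt4 ranged from -0.0707 to 0.0261 and Flt1 from -0.134 to 0.0007. At 5 against 2 weeks Flt4 ranged from -0.209 to 0.0634, Flt1 from -0.184 to 0.0387 and Vegfc from -0.0227 to 0.085. Among members and ratios that kept their sign, several moved by over 1.5 times, for example the following. Kdr ranged from 0.0522 to 0.204 at 5 against 0 weeks and from -0.217 to -0.0656 at 5 against 2 weeks (without 5-week replicates 1 and 3), and Flt1 from -0.265 to -0.0428 at 5 against 0 weeks (without 5-week replicates 4 and 3). The Angpt2 to Angpt1 difference ranged from 0.0549 to 0.245 at 5 against 0 weeks and from -0.191 to -0.0007 at 5 against 2 weeks (5-week replicates 4 and 2), and Tie1 to Tek from 0.0841 to 0.194 at 2 against 0 weeks (control replicates 4 and 3). Depth per gene could not be turned into counts, so counting error is not separated from the spread between mice.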
